A study of Mus musculus with 2 samples.

Results

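Splicing genes were examined in 2 RNA-seq libraries labelled as macrophages of mouse dorsal root ganglia, the sensory ganglia beside the spinal cord. One library came from mice under chronic intermittent hypoxia and the other from normoxic mice. The genes were taken by name: every gene whose symbol begins with Snrp, Srsf, Hnrnp, Sf3a or Sf3b, together with Bud31, leaving out 4 pseudogene rows that have "-ps" in the name and 0 counts in both libraries. This gave 54 of the 49315 genes in the count table. Of these, 53 are annotated as protein-coding, and the remaining one, Snrpert, is a processed pseudogene (an intronless copy of a messenger RNA).

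Mice of the hypoxia group breathed air that cycled between 21% and 8% oxygen every 6 min, for 8 h a day over 14 days. The normoxia group was handled in the same kind of chamber with the oxygen held at 21%. Tissue was taken about 18 h after the last session. Strain, age, sex, the number of mice per library and the way the cells were isolated are not stated in the labels. Each group was 1 library, so the differences below have no replicate check, no p-value was computed, and every interval covers counting error only. The column of the hypoxia library was matched to its sample by the first letter of its code alone.

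Pre-mRNA splicing removes introns in the spliceosome, a machine built from small nuclear ribonucleoproteins (snRNPs), each a small nuclear RNA wrapped in proteins. The Sm proteins form a ring around the RNA of the U1, U2, U4 and U5 snRNPs. The SF3A and SF3B complexes belong to the U2 snRNP and hold it on the branch point of the intron. SR proteins (Srsf genes) mostly bind exons and promote their inclusion, whereas many heterogeneous nuclear ribonucleoproteins (hnRNPs) coat the nascent transcript and often oppose it. Bud31 is a small spliceosome protein.

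Total counts were 2171348 for normoxia and 145056 for hypoxia, a depth that differed 15-fold. Genes with at least 1 count numbered 4640 and 2050, with 1158 in both. Reads per starting molecule were estimated, from genes counted in 1 library alone, at 229 and 39, which puts the libraries at about 9482 and 3719 molecules. A count of 0 allows up to 3 reads, which in CPM (the count scaled to the sum of its library) comes to 1.38 for normoxia and 20.7 for hypoxia, or up to 3 estimated molecules, which is 316 and 807 CPM. Intervals are therefore given on reads and, divided by these estimates, on molecules. Of 12 macrophage markers, 11 were counted in normoxia and 2 in hypoxia, with a summed share of 2.06% and 2.19% of counts. Lyz2 alone held 34028 of the 44697 macrophage marker counts in normoxia and 3164 of the 3170 in hypoxia, where Cx3cr1 had the other 6. Adgre1, Cd68, Csf1r, C1qa, C1qb, C1qc, Cd163, Mrc1 and Fcgr1 stood at 0 in hypoxia, and Mertk at 0 in both. Of 14 neutrophil markers, 10 and 11 were counted, with a summed share of 1.83% and 10.3%. By the rule for single genes given below, 8 of 11 compared were higher in hypoxia (background 16.1%) and 3 lower (background 71.5%). The 3 were Mmp9, Mpo and Mmp8, with 522, 506 and 312 counts in normoxia and 0 in hypoxia. Of 10 listed red cell genes 9 were in the table, with 9.83% and 7.95% of counts. Glial markers took 0.594% and 0.270%, mostly Apoe (12776 and 249 counts), while Glul (129 and 85) and Mbp (0 and 58) were higher in hypoxia by CPM. The part of these cell types in the results on splicing genes was not tested.

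As a set, the splicing genes took almost the same share of both libraries. They held 25064 counts in normoxia, 1.15% of the total (95% interval 1.14 to 1.17), and 1644 counts in hypoxia, 1.13% (1.08 to 1.19). Hypoxia over normoxia this was 0.982 (read interval 0.933 to 1.03, molecule interval 0.671 to 1.41). In bulk samples such as these, fewer cells of a type and less RNA per cell cannot be told apart. With TMM scaling (trimmed mean of M values, which rests on genes counted in both libraries and shifts every log2 ratio by −0.80) the ratio was 0.563. The set came to about 109 molecules in normoxia and 42.2 in hypoxia. The level share depends on which members are summed. Bud31, taken by its own name, gave 97 of the set's counts in normoxia and 161 in hypoxia, which raises the ratio. A ratio without Bud31 would be lower but was not computed. The level share is thus stated only for the set with Bud31 in it. Without Hnrnpa2b1, the member with most counts, the ratio was 1.06.

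The families within the set did not keep their proportions in reads. The hnRNP genes held 65.4% of the set's own counts in normoxia and 34.6% in hypoxia. The molecule intervals of these shares were 55.7 to 74.2 and 20.7 to 50.8, which lie apart. SR protein genes held 13.7% and 25.7%, SF3B genes 6.34% and 10.5%, and SF3A genes 0.447% and 5.41%. Bud31 alone held 0.387% and 9.79%. The molecule intervals of the SR, SF3B, SF3A and Bud31 shares overlap between the libraries. They were 7.91 to 21.6 and 13.5 to 41.5 for SR genes, and 0.000113 to 4.06 and 2.81 to 22.9 for Bud31. Sm core genes were level at 12.2% and 11.9%.

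**Figure D1:**
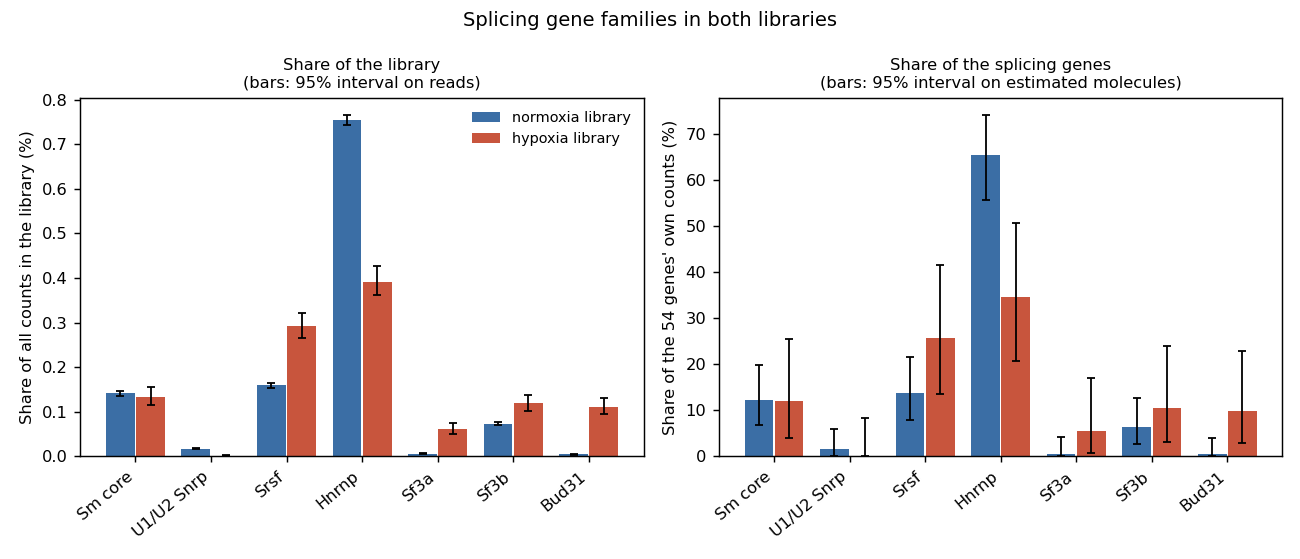
Left, share of all counts (percent) for each splicing gene family in the normoxia (blue) and hypoxia (red) library, with 95% intervals on reads. Right, the same families as a percent of the 54 genes' own counts, with 95% intervals on estimated molecules. Hnrnp stands at 65.4% of the set in normoxia and 34.6% in hypoxia, and Srsf at 13.7% and 25.7%. Snrpert is not drawn.

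Counts of hnRNP genes per SR count do not depend on how the libraries are scaled. There were 4.76 hnRNP counts for each SR count in normoxia and 1.35 in hypoxia, which is 0.283 times the normoxia value (read interval 0.248 to 0.323, molecule interval 0.0991 to 0.837). Among the 6 pairs of the 4 families with most counts (hnRNP, SR, Sm core and SF3B), 5 had read intervals that exclude 1 and 1, the hnRNP and SR pair, had a molecule interval that does. These pairs were chosen after the counts were seen. Without Srsf1 the ratio was 0.441, with a molecule interval of 0.133 to 1.70, and without Hnrnpa2b1 and Hnrnpa3 it was 0.347, with 0.110 to 1.03. The direction therefore held in both cases, but the molecule interval then included 1.

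Single genes were compared where they had at least 50 counts over both libraries, as 39 of the 54 did. A gene was called when its CPM differed at least 2-fold and the 95% interval on reads excluded 1. By this rule 9 members were higher in hypoxia, against a background of 16.1% of the 4215 genes tested, and 24 were lower, against a background of 71.5%. Another 6 met neither. Of the 24 lower members, 21 had 0 counts in hypoxia. With the interval on molecules 1 member was higher (background 0.83%) and 0 were lower (background 0.38%). With TMM, intervals on molecules gave 0 higher (background 0.19%) and 2 lower (background 1.3%), and intervals on reads 6 higher (background 11.9%) and 24 lower (background 75.7%). Housekeeping scaling gave 9 and 24 on reads (backgrounds 16.1% and 71.7%), and a minimum of 200 counts gave 7 and 21 (backgrounds 11.3% and 71.9%). The median log2 ratio was −1.73 over the 39 members and −1.95 over all tested genes with each 0 taken as 3 reads, and 1.57 against 2.35 with each 0 taken as 3 molecules. The sign of the median is thus set by how the zeros are read. Among members counted in both libraries the median was 0.77, against 0.69 over all such genes.

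**Figure D2:**
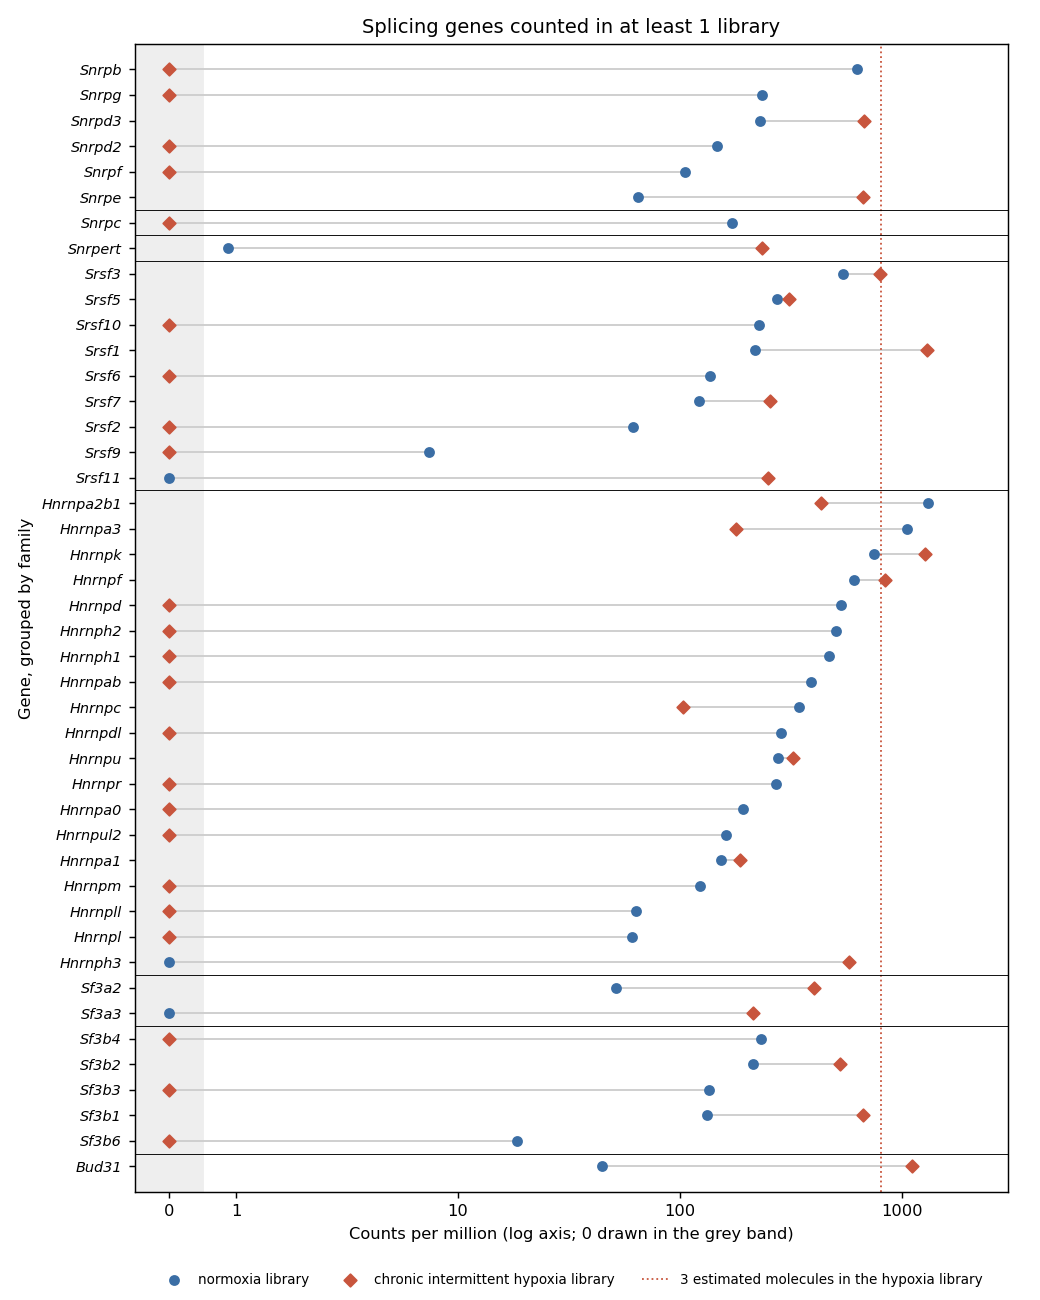
CPM (log axis, with 0 drawn in the grey band) of each splicing gene counted in at least 1 library, grouped by family, in normoxia (blue circles) and hypoxia (red diamonds). The dotted line is the level of 3 estimated molecules in the hypoxia library, 807 CPM. All the members at 0 in hypoxia lie below that line in normoxia, the highest being Snrpb at 626 CPM.

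Most members seen in normoxia were missing from hypoxia. Of 54 members 21 had counts in hypoxia, against 4.16% of all genes. Hypoxia held 18 of the 41 members found in normoxia (43.9%), against 25% of all 4640 genes. Members were more abundant than the average gene, with a median count of 465 in normoxia against 230 over all counted genes. Among genes with at least 100 counts in normoxia the share was 16 of 37 members, against 28.3%. With at least 500, 8 of 17 members (47.1%) were counted in hypoxia, close to the 51.5% of 977 genes overall. With at least 1000 counts it was 5 of 9 members, against 69.1% of 369 genes. From 200 to under 500 counts it was 6 of 15 members, against 20% of 1657 genes. Over all genes detection was thus higher at higher counts, whereas over the members it showed no clear order. The bins hold few members, and no difference from the background was tested.

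**Figure D3:**
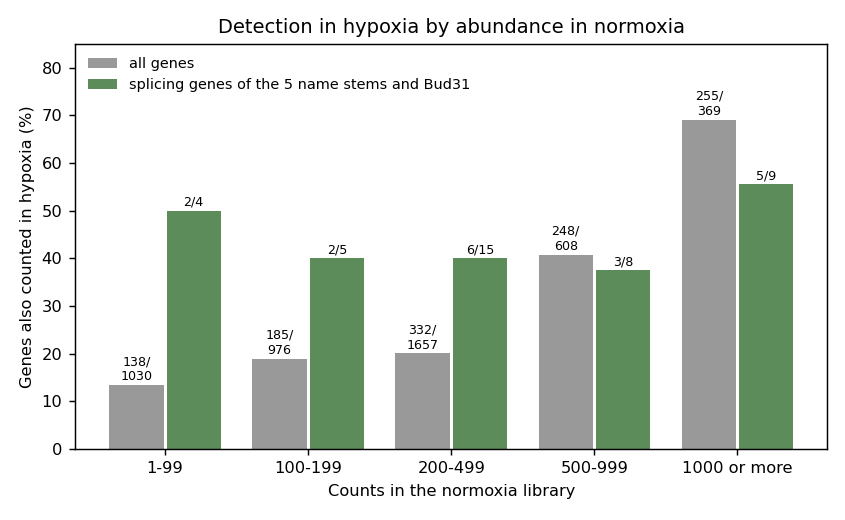
Percent of genes counted in hypoxia (y axis) by their count in normoxia (x axis, 5 bins), for all genes (grey) and for the splicing genes (green), with the number counted and the number in the bin above each bar. Detection over all genes goes from 13.4% in the lowest bin to 69.1% in the highest, and the splicing genes reach 5 of 9 in the highest bin.

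The hnRNP genes were the largest family, with 20 members, of which 18 were counted in normoxia and 8 in hypoxia. Their share of all counts was 0.755% (0.743 to 0.766) in normoxia and 0.392% (0.361 to 0.426) in hypoxia, a CPM ratio of 0.520 (read interval 0.477 to 0.565, molecule interval 0.274 to 0.921). Of 19 compared genes, 14 were lower in hypoxia, near the background of 71.5%, 1 was higher (background 16.1%) and 4 met neither. The count of calls thus shows nothing particular to hnRNP genes. With TMM the ratio was 0.298.

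The A/B-type hnRNPs are abundant proteins that bind pre-mRNA and help to choose splice sites and to carry messenger RNA. Hnrnpa2b1 (ENSMUSG00000004980, chromosome 6, 51460932 to 51469894 in GRCm38, the build used for each position given) had the most counts of any member. There were 2832 reads in normoxia and 63 in hypoxia, which is 1304 and 434 CPM, a CPM ratio of 0.333 (read interval 0.255 to 0.427, molecule interval 0.0253 to 1.67). Hnrnpa3 (ENSMUSG00000059005, chromosome 2, 75659261 to 75669407) had 2294 and 26 counts, a CPM ratio of 0.170 (read interval 0.111 to 0.249, molecule interval 0.000798 to 1.58). Both genes had a lower CPM in hypoxia, with molecule intervals that include 1 on total counts. They were the 2 members called lower on molecules with TMM scaling. Their relative Hnrnpa1, the best known splicing repressor of the group, had 333 and 27 counts, a CPM ratio of 1.21 (0.788 to 1.80) that includes 1. Hnrnpa0 had 417 counts in normoxia and Hnrnpab 844, with 0 in hypoxia for both.

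Hnrnpk, which binds C-rich sequence, and Hnrnpf, which binds G-tracts, were the hnRNP genes with most counts in hypoxia. Hnrnpk (ENSMUSG00000021546, chromosome 13, 58391142 to 58403343) had 1627 and 185 counts, or 749 and 1275 CPM. Hnrnpf had 1323 and 122 counts, or 609 and 841 CPM. Neither reached 2-fold, with ratios of 1.70 and 1.38 on total counts and 0.975 and 0.791 with TMM. The close relatives of Hnrnpf parted in detection. The hypoxia library had 0 counts of Hnrnph1 and Hnrnph2, against 1023 and 1098 in normoxia, whereas Hnrnph3 had 0 in normoxia and 84 in hypoxia. The 84 reads stand for about 2.15 molecules, and 1023 and 1098 for about 4.47 and 4.79.

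Hnrnpc, a core protein of the hnRNP particle that binds U-tracts, had 745 and 15 counts, a CPM ratio of 0.301 (0.168 to 0.500). Its 15 reads are the fewest of any member counted in hypoxia and come to less than 1 estimated molecule. Hnrnpu, a nuclear scaffold protein, had 599 and 47 counts, a CPM ratio of 1.17 (0.854 to 1.58). The AU-rich element binding genes Hnrnpd and Hnrnpdl stood at 0 in hypoxia, against 1156 and 621 counts. Hnrnpr (591), Hnrnpul2 (350), Hnrnpm (268), Hnrnpll (137) and Hnrnpl (132) were also at 0 in hypoxia, and Hnrnpul1 was at 0 in both. Exons of Hnrnpm share 1169 bases with March2 on the same strand, which had 1136 and 0 counts. Hnrnpll and Hnrnpl regulate exon choice in the Ptprc (CD45) transcript of leukocytes. The levels in normoxia of these last 5 counted genes ran from 60.8 to 272 CPM, under the 316 CPM of 3 molecules there.

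SR protein genes went the other way as a family on total counts, and Srsf1 held 189 of their 423 counts in hypoxia. Their share was 0.159% (0.153 to 0.164) in normoxia and 0.292% (0.265 to 0.321) in hypoxia, a CPM ratio of 1.84 (read interval 1.66 to 2.03, molecule interval 0.760 to 4.29). Of 11 members 8 were counted in normoxia and 5 in hypoxia. Of 7 compared, 2 were higher in hypoxia (background 16.1%), 3 were lower (background 71.5%) and 2 met neither. With TMM the ratio was 1.05. A family ratio without Srsf1 would be lower but was not computed.

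Srsf1, the founding SR protein and a splicing enhancer of many exons (ENSMUSG00000018379, chromosome 11, 88047373 to 88053755), had more counts in hypoxia than any other member. It had 473 counts in normoxia and 189 in hypoxia, or 218 and 1303 CPM, a CPM ratio of 5.98 (read interval 5.03 to 7.09, molecule interval 0.977 to 60.4). Srsf3, the smallest SR protein, led the family in normoxia with 1175 counts and had 116 in hypoxia, a CPM ratio of 1.48 (1.21 to 1.79). Srsf7 had 265 and 37 counts, a CPM ratio of 2.09 (1.44 to 2.96) that fell under 2-fold with TMM, at 1.20. Srsf5 had 595 and 45 counts, a CPM ratio of 1.13 (0.817 to 1.53). With TMM Srsf3 and Srsf5 were at 0.847 and 0.649. Srsf10 (490 counts in normoxia), Srsf6 (297) and Srsf2 (134) had 0 in hypoxia. Srsf9 had 16 and 0 counts, Srsf11 had 0 and 36, and Srsf4 and Srsf12 had 0 in both.

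**Figure D4:**
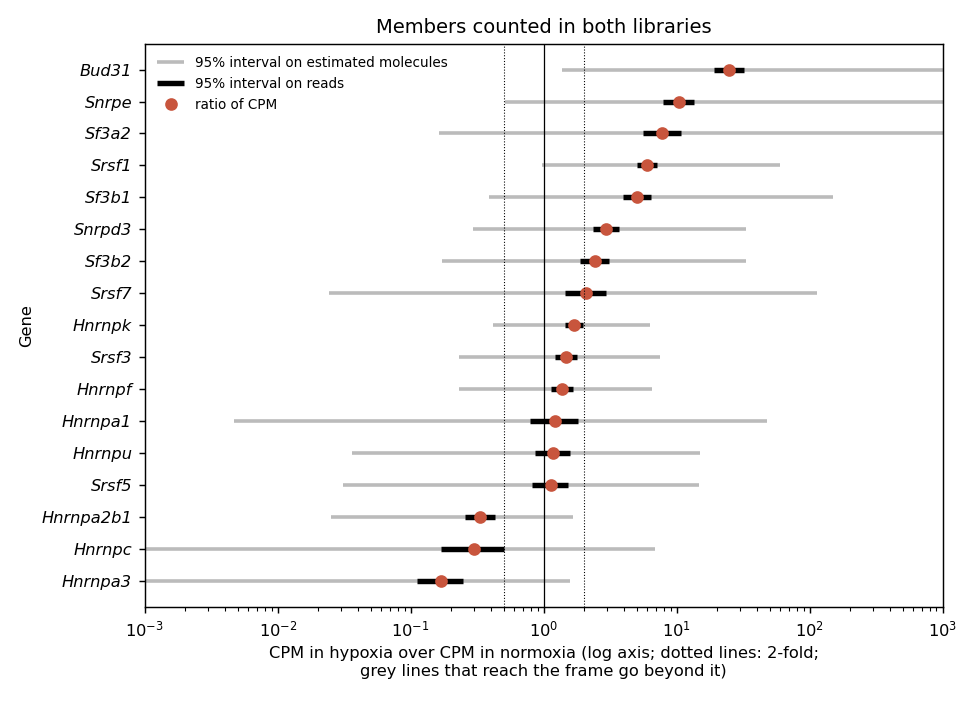
Ratio of CPM in hypoxia over normoxia (log axis) for the 17 members with at least 50 counts that were counted in both libraries. Black lines are 95% intervals on reads and grey lines 95% intervals on estimated molecules. Bud31 at 24.8 is the only one whose grey line stays above 1, and Hnrnpa3, Hnrnpc and Hnrnpa2b1 lie lowest.

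Of these 17 genes, 14 had a ratio above 1 on total counts, against 67.6% of the 1108 genes of the same kind. With TMM it was 8 of 17, against 46.8%. The direction of single members near 1 is thus a matter of scaling.

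The Sm core genes were level as a family and split as genes. Their share was 0.141% (0.136 to 0.146) in normoxia and 0.134% (0.116 to 0.155) in hypoxia, a CPM ratio of 0.955 (read interval 0.822 to 1.10, molecule interval 0.267 to 2.84). The ratio was 0.547 with TMM, and 1.72 without Snrpb. Snrpb, which encodes the SmB and SmB' proteins (ENSMUSG00000027404, chromosome 2, 130171414 to 130179403), had 1360 and 0 counts. It had the highest count of any member that was missing from hypoxia. Snrpg (510 counts), Snrpd2 (320) and Snrpf (229) were likewise at 0 in hypoxia. Snrpd3 had 498 and 98 counts, a CPM ratio of 2.95 (2.35 to 3.66) (1.69 by TMM), and Snrpe had 140 and 97 counts. Exons of Snrpd3 share 232 bases with Gucd1 on the other strand, which had 143 and 60 counts. Snrpd1 and Snrpn, the latter a close relative of Snrpb expressed mainly in neurons, had 0 in both. An Sm ring holds a single copy of each of its proteins. In hypoxia all the Sm counts came from Snrpd3 and Snrpe, about 5 estimated molecules in all.

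Snrpe (ENSMUSG00000090553, chr1:133603871-133610291, minus strand) had 64.5 CPM in normoxia and 669 CPM in hypoxia, a CPM ratio of 10.4 (read interval 7.92 to 13.5, molecule lower bound 0.511). Its pseudogene Snrpert (ENSMUSG00000082044, chr2:131322088-131322366, minus strand) had 2 counts in normoxia and 34 in hypoxia, a CPM ratio of 254 (read interval 65.2 to 2186). It had too few counts for the call, and its 34 reads come to 0.872 of an estimated molecule. Snrpert is a near-identical copy of the Snrpe coding sequence, so short reads can match both genes. How the authors' counting treated such reads is not stated in the labels, so the split between the genes is uncertain. Without Snrpert the ratio of the whole set was 0.962.

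Copies of this kind were searched for all members. A copy was another gene whose transcript matched at least 50% of the member's coding sequence at 95% identity or more. The 3 parent genes whose copies had 30 or more counts are described. Snrpert and Gm7964 reached that number through hypoxia alone, so the direction of their shares is no finding. Copies of Hnrnpa3, Hnrnph2, Snrpg and Srsf5 had 1 count each in normoxia and 0 in hypoxia. Snrpert held 1.41% (0.171 to 5.00) of the joint count of Snrpe and Snrpert in normoxia, 2 of 142, and 26.0% (18.7 to 34.3) in hypoxia, 34 of 131. For Hnrnpk the copy Gm7964 held 7 of 1634 counts (0.428%, 0.172 to 0.881) and 65 of 250 (26.0%, 20.7 to 31.9). For Hnrnpa1 the copies held 113 of 446 counts (25.3%, 21.4 to 29.6), all at Gm10052, and 35 of 62 (56.5%, 43.3 to 69.0), all at Gm5643. The copy reads in hypoxia come to 0.872 (Snrpert), 1.67 (Gm7964) and 0.897 (Gm5643) estimated molecules. The values of Snrpe, Hnrnpk and Hnrnpa1 are uncertain at least to that extent. Other members also had near-identical copies, with 1 count or none, among them Hnrnpa3 (20 copies), Hnrnpf (5) and Srsf3 (4). How reads that match such copies were counted is not stated, so the values of these members are uncertain too.

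**Figure D5:**
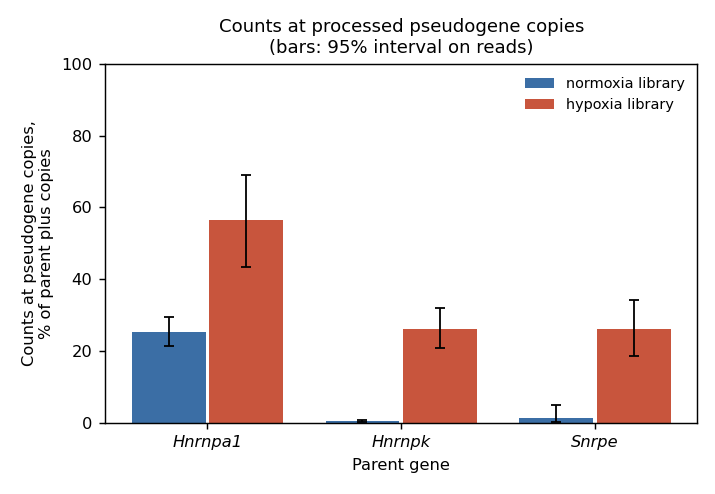
Counts at processed pseudogene copies as a percent of the joint count of parent gene and copies (y axis), for Hnrnpa1, Hnrnpk and Snrpe, in normoxia (blue) and hypoxia (red), with 95% intervals on reads. The shares in hypoxia are 56.5%, 26.0% and 26.0%, each resting on fewer than 2 estimated molecules of copy reads.

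The U1- and U2-specific Snrp genes were nearly absent. Snrpc, a U1 protein that helps to pair with the 5′ splice site, had 372 counts in normoxia and 0 in hypoxia. Snrpa of U1 and Snrpa1 and Snrpb2 of U2 had 0 in both libraries.

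The summed counts of the SF3A genes and of the SF3B genes had ratios above 1 on total counts, on few molecules. Single SF3B genes went both ways. SF3A genes took 0.00516% (0.00425 to 0.00621) of counts in normoxia and 0.0614% (0.0493 to 0.0755) in hypoxia, a CPM ratio of 11.9 that rests on 0.489 and 2.28 estimated molecules. Sf3a2 had 112 and 58 counts, a CPM ratio of 7.75 (5.55 to 10.7), Sf3a3 had 0 and 31, and Sf3a1 had 0 in both. Exons of Sf3a2 share 429 bases with those of Plekhj1 on the other strand, which had 358 and 44 counts. The strand setting of the counting is not stated in the labels. SF3B genes took 0.0732% (0.0696 to 0.0769) and 0.119% (0.102 to 0.138), a CPM ratio of 1.63 (read interval 1.38 to 1.91, molecule interval 0.376 to 6.22) that turned to 0.934 with TMM. Sf3b1, the largest subunit, which contacts the branch point (ENSMUSG00000025982, chromosome 1, 54985169 to 55027481), had 288 and 97 counts, a CPM ratio of 5.04 (3.96 to 6.37). Sf3b2 had 465 and 76 counts, a CPM ratio of 2.45 (1.89 to 3.12) that was 1.40 with TMM. Sf3b4 (503 counts in normoxia), Sf3b3 (293) and Sf3b6 (40) had 0 in hypoxia, and Sf3b5 had 0 in both. All the SF3B counts in hypoxia thus came from 2 of the 6 subunit genes.

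Bud31 had the largest ratio among the compared members counted in both libraries (ENSMUSG00000038722, chromosome 5, 145140362 to 145148078, plus strand). It had 97 counts in normoxia and 161 in hypoxia, or 44.7 and 1109.9 CPM, a CPM ratio of 24.8 (read interval 19.2 to 32.3). On molecules it stood at 0.424 and 4.13. The molecule interval of 1.37 to 99511 made it the only member called with molecule intervals on total counts. With TMM the ratio was 14.2 and it was no longer called on molecules. Bud31 was taken by its own name, and members were chosen with earlier results of these data known. Its place among the members is thus no independent finding. Its exons share 244 bases with Ptcd1 on the other strand, which had 0 counts in both libraries. No copy of Bud31 was found by the search.

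Levels per transcript length, as the authors' TPM values (a length-scaled share of transcripts), put other members first in each library. In normoxia Snrpb was highest at 579.9 TPM, followed by Hnrnpf (366), Hnrnpa2b1 (362), Hnrnpa3 (358) and Snrpg (274). In hypoxia Snrpert was highest at 1179.7 TPM, followed by Bud31 (969), Snrpe (684), Hnrnpf (388) and Srsf1 (320.4). The neighbours Hnrnpf, Hnrnpa2b1 and Hnrnpa3 in normoxia lie within 8 TPM of each other. In hypoxia 10 of the 21 members counted had at most 1.5 estimated molecules. Snrpert, with 279 bases of exon, had its TPM from 34 reads.

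Genes of the splicing pathway outside these names were described from lists chosen for their function. On 143 such genes the summed share was 1.44% in normoxia and 1.05% in hypoxia, a CPM ratio of 0.731 (read interval 0.694 to 0.770, molecule interval 0.499 to 1.05). Hypoxia held 16 of the 82 found in normoxia (19.5%), against 25% of all genes. With at least 500 counts in normoxia it was 4 of 17 (23.5%), against 8 of 17 for the named splicing genes and 51.5% of all genes.

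Other snRNP genes had the lowest share in hypoxia among the larger of these lists. Of 32 genes of the U1, U4/U6, U5 and minor snRNPs and the Lsm ring, 17 were counted in normoxia and 1 in hypoxia, and the ratio was 0.131 (0.0874 to 0.188 on reads, 0.00104 to 1.05 on molecules). All 15 compared genes were called lower on reads, with 0 in hypoxia. The background for this and the following lists is 71.5% lower and 16.1% higher. The 15 genes included Sart3 (494 counts in normoxia), the U5 helicase gene Snrnp200 (361), Luc7l3 (298) and the U5 GTPase gene Eftud2 (295). Sart3 had the highest level of the 15 in normoxia, 228 CPM, under the 269 CPM of 1 estimated molecule in hypoxia. A count of 0 in hypoxia thus cannot tell a lower level of these 15 genes from too few molecules sampled. Among 15 genes of branch point and 3′ splice site recognition, 2 of 9 compared were higher and 7 lower, with Dhx15 at 1441 and 0 counts, U2af2 at 639 and 0, U2surp at 364 and 66, and Ddx39b at 0 and 55. For the 24 catalytic core genes it was 2 higher and 9 lower of 11, with Cdc5l at 774 and 0 and Isy1 at 0 and 78. For the 14 exon junction complex and SR-related genes it was 1 higher and 9 lower of 12, with Magoh at 741 and 0, Tra2b at 681 and 0, and Srrm1 at 0 and 74.

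Other regulators of splicing were closer to level. Their 36 genes had a CPM ratio of 0.937 (read interval 0.877 to 1.00), with 8 of 29 compared genes higher (background 16.1%), 16 lower (background 71.5%) and 5 neither. Raly had 2417 and 163 counts, the muscleblind gene Mbnl1 1816 and 173, Sfpq 1850 and 0, and the cold-inducible gene Rbm3 1145 and 0. Of 8 kinases that phosphorylate SR proteins, 3 were counted in normoxia and 1 in hypoxia. Clk1 had 462 and 0 counts, Clk2 268 and 0, Srpk1 129 and 0, and Prpf4b 0 and 6. In normoxia Clk1, Clk2 and Srpk1 stood at 213, 123 and 59.4 CPM. These levels lie under the 269 CPM of 1 estimated molecule in hypoxia. The ratio of the list was 0.105 (0.0383 to 0.229 on reads, 1.43e-11 to 4.73 on molecules). Of 14 snRNP assembly genes 4 were counted in normoxia and 2 in hypoxia. Of 3 compared, Wdr77 (280 and 0 counts) and Strap (232 and 0) were lower and Clns1a (118 and 40) was higher. These lists were not tested against other genes, and with molecule intervals 0 of their genes were called in either direction.

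Promoter sequence was compared as a feature that the choice by name did not use. RefSeq windows on GRCm38.p6, from 250 bases before to 50 bases after the gene start, were found for 47 of the 54 members. A gene with several windows was taken to hold a sequence when any of them did. The letters CCGGAAG, the core of an ETS factor site, stood on either strand in 16 of these 47 (34%), against 21.4% of 3223 genes with at least 50 counts and 9.93% of all 27025 genes. Of the 16, 8 were counted in hypoxia, Snrpe, Srsf5, Srsf7 and Hnrnpf among them, and of the other 31 members 12 were. GCGCATG, part of an NRF1 site, stood in 10.6% of members against 9.4% of the genes with at least 50 counts, CCAAT in 48.9% against 43.2%, and TATAAA in 14.9% against 9.43%. Median GC content was 60.3% in members and 60.7% in the counted genes. The 47 members were not held to the minimum of 50 counts, so these shares are not on the same footing. Among the members with CCGGAAG, Sf3a1, Snrpb2 and Srsf4 had 0 counts in both libraries. Sf3a3 (31 counts over both), Srsf11 (36) and Sf3b6 (40) were also under the minimum. These are matches of letters only, and no difference in them was tested.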

How the data were processed

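RNA was extracted with Trizol and made into libraries with the NEBNext Ultra II kit, per the labels' protocols. The submitters' processing notes name bcl2fastq 2.20, STAR 2.5.2b, featureCounts and Subread 1.5.2. The genome build, strand setting and treatment of reads that map to several places are given by neither labels nor file. Raw counts and TPM values per gene and library were deposited by the authors as 2 separate tables. Members and gene lists were chosen with earlier results of these data known.

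Here counts were divided by the library total (CPM). Shares have exact Clopper-Pearson 95% intervals, and ratios have exact conditional binomial ones, which cover counting error only. Genes with at least 50 counts over both libraries were compared and called past 2-fold when the interval excluded 1. Reads per molecule were taken as the median count of genes with at least 10 counts in 1 library alone, an assumption that was not tested. Alternatives were TMM (edgeR 4.0.16), DESeq2 1.42.0 size factors, housekeeping scaling, other count minimums and molecule intervals. No test was run, as each group was 1 library. Every member is named, and counts of members under 50 were added after their values were seen. From other lists, genes with most counts or the largest ratios are named. Positions and copies come from GENCODE M21 (BLAST 2.17.0), and promoters from RefSeq. The calls and read intervals were tested on simulated read counts with 200 genes changed 4-fold. That simulation had no amplification from molecules, so it does not check the molecule estimates or molecule intervals. The sequences of Snrpe and Snrpert are not reported here.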

Additional observations from a re-analysis of the deposited data

Results flagged for a closer look

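Counts at 2 processed pseudogenes outside the named splicing genes were looked at because they are near-identical copies of members and stood above the normoxia library. Gm7964 (ENSMUSG00000063902), a copy of Hnrnpk with 99.2% identity over 98.7% of its coding sequence, had 7 counts in normoxia and 65 in hypoxia, or 3.22 and 448 CPM, which is about 1.67 molecules in hypoxia. Gm5643 (ENSMUSG00000083311), a copy of Hnrnpa1 with 98.4% identity over 67% of its coding sequence, had 0 and 35 counts, or 0 and 241 CPM, which is about 0.897 of a molecule in hypoxia.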

How the results depend on the processing

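With TMM and with DESeq2 size factors the family ratios were lower than on total counts, except that of the U1- and U2-specific genes, which was 0 throughout. In that order the values were 0.547 and 0.568 for the Sm core, 1.05 and 1.09 for SR genes, 0.298 and 0.309 for hnRNP genes, 6.82 and 7.08 for SF3A, 14.2 and 14.8 for Bud31, and 0.563 and 0.584 for all 54 genes. SF3B changed direction, to 0.934 and 0.97. With intervals on molecules the ratios of 1.84 (SR), 1.63 (SF3B), 11.9 (SF3A), 254 (Snrpert) and 0 (U1- and U2-specific genes) no longer had an interval that excludes 1. Leaving out the member with most counts gave 1.72 for the Sm core (without Snrpb), 1.29 for SF3B (without Sf3b2) and 1.06 for all members (without Hnrnpa2b1). Members past 2-fold on molecules were 1 higher and 0 lower on total counts, 0 higher and 2 lower with TMM (Hnrnpa2b1 and Hnrnpa3), and 1 higher and 0 lower with housekeeping scaling; the last 2 settings were chosen after seeing the data. So were the hnRNP per SR ratios of 0.441 without Srsf1 and 0.347 without Hnrnpa2b1 and Hnrnpa3. In these cases the cause was not tested beyond the change of scale, interval or members itself. Over all alternative settings of these results, 33 values stayed close to the main one and 23 moved away from it. Another 5 lost an interval that excludes 1, and 2 changed direction. A ratio counted as close when it lay within the main interval on reads, so a moved value can keep its direction. Molecule intervals counted as close when they excluded or included 1 as the main one did. Of 51 values of single members 32 moved. With TMM 6 members under 2-fold crossed from above 1 to below it: Hnrnpf (0.791), Hnrnpk (0.975), Hnrnpu (0.673), Hnrnpa1 (0.695), Srsf3 (0.847) and Srsf5 (0.649). With DESeq2 size factors these crossed too except Hnrnpk (1.01). Leaving out members with a counted "-ps" copy gave no value, since those rows had 0 counts. No paired analysis was possible because each group was 1 library, and no replicate could be left out. The hypoxia library is the more limited one, where a 0 allows up to 20.7 CPM on reads and up to 807 CPM on estimated molecules.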
